A study of Mus musculus with 12 samples.

Results

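The genes described here are the T helper 2 (Th2) cytokine locus and the main regulators of Th2 cells, 10 genes in all: Il4, Il5, Il13, Rad50, Gata3, Maf, Il4ra, Il1rl1, Il10 and Stat6. They were listed by name, and all 10 were found among the 25206 probe sets of the array, 1 probe set each. The study used 12 whole-transcript microarrays to profile splenic CD4+ T cells of mice in 4 groups of 3 arrays. Cre- cells had the genotype Lck-Cre-;Ikzf+/+, with intact Ikaros, and Cre+ cells the genotype Lck-Cre+;Ikzf-/-, in which Cre driven by the promoter of the T lineage kinase Lck deletes Ikzf1, the gene of the zinc finger factor Ikaros. Each genotype was measured at baseline, labelled 0 hours, and after 24 hours on plate-bound antibody to CD3 with soluble antibody to CD28. The labels name no added cytokine that would steer the cells to a T helper type, no group with Cre and intact Ikaros, and no culture without the antibodies. Cre and the loss of Ikaros therefore cannot be told apart, nor can activation and 24 hours of culture.

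Th2 cells are the helper T cells of allergy and of the response to worms, and they are defined by making interleukins 4, 5 and 13. Those genes lie together in mouse and human, with Rad50 between Il13 and Il5. The intronic DNA of Rad50 holds the locus control region through which Gata3 and other factors act on the cytokine genes. IL-4 from a T cell binds the receptor chain encoded by Il4ra, which activates STAT6. STAT6 raises Gata3, and Maf binds the Il4 promoter. A naive CD4 T cell stimulated through CD3 and CD28 alone makes a little of these cytokines, while a full Th2 programme takes IL-4 and days of culture. Ikaros is known to act in this programme, since T cells without it have been described as poor at silencing Th1 genes under Th2 conditions.

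The 250 bases before the transcription start of the 3 Th2 cytokine genes are shown because the results turn on these genes, which share a locus. The sequences are RefSeq's on mouse build GRCm38.p6, written 5′ to 3′ on the strand of the gene. The table used here matched 7 of the 10 genes and had no entry for Il10, Rad50 or Maf. Capitals mark every match, on either strand, to a GATA factor motif (any of AGATAA, then AGATAG, also TGATAA and lastly TGATAG), to the NFAT core (GGAAAA), to an AP-1 motif (TGANTCA), to a STAT6 motif (TTC, then any 4 bases, then GAA) or to the Ikaros core (TGGGAA).
Il4, chr11:53618666-53618915, minus strand: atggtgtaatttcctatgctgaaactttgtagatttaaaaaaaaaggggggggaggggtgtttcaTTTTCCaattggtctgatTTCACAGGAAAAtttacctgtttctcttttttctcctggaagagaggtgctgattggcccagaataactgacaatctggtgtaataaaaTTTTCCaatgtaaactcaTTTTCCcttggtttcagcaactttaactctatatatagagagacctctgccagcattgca
Il13, chr11:53634703-53634952, minus strand: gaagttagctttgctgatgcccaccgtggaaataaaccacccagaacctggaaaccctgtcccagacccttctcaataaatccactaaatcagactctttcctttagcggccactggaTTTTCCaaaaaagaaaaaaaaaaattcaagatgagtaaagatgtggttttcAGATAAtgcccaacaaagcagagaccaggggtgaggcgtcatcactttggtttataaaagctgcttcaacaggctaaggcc
Il5, chr11:53720544-53720793, plus strand: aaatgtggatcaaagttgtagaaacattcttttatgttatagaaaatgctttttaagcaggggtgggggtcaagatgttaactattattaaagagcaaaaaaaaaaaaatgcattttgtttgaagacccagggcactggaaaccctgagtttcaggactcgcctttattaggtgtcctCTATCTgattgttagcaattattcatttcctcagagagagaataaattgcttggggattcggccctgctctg

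Positions are counted back from the start, with -1 as the base just before it. The Il4 window held 4 NFAT cores, whose first bases lay at -185, -161, -78 and -60. NFAT is the calcium-driven factor that T cell receptor signals switch on. A STAT6 motif at -167 to -158 overlapped the NFAT core at -161. The Il13 window had 1 NFAT core at -132 and a GATA motif at -81 to -76, and the Il5 window had a GATA motif on the reverse strand at -72 to -67. No AP-1 motif or Ikaros core was in the 3 windows, which says nothing of binding outside these letters. Over 32851 promoter windows of the same length, 26.5% held a GATA motif, 20.4% an NFAT core, 6.75% an AP-1 motif, 5.85% a STAT6 motif and 21.6% an Ikaros core. A count of 4 or more NFAT cores was found in 0.0396% of windows. That cutoff is the count seen in the Il4 window, so the share describes Il4 and does not test it. A match is a string of letters, not a measured site, and no binding was measured.

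Values are log2 expression as deposited by the authors, and a difference of 1 is 2-fold. A gene passed at a limma adjusted p under 0.05 over the 23740 genes tested. Array medians lay between 4.04 and 4.17. Detection above background was not tested. Where a gene read below or near these medians in a group compared, its fold is therefore one of readings and not exact. Within a group, arrays correlated at 0.992 or above at baseline, at 0.972 to 0.994 in activated Cre- cells and at 0.976 to 0.990 in activated Cre+ cells. Activated array 3 of each genotype stood apart, with a mean of 8 cell cycle genes of 9.04 in Cre- cells and 8.72 in Cre+ cells, against 6.58 to 7.18 on the other activated arrays. Results on activated cells are therefore given also without those arrays where this changes a call. The 7 CD4 T cell markers averaged 10.37 to 10.51 at baseline and 9.85 to 10.23 after activation. Ikzf1 itself read 10.53 ± 0.01 (SD, n = 3) in Cre- and 10.36 ± 0.27 (SD, n = 3) in Cre+ cells at baseline (limma adjusted p = 0.972). After activation it read 10.11 ± 0.10 and 9.98 ± 0.13 (SD, n = 3 each, limma adjusted p = 0.994). The labels do not say which exons were deleted, so this does not check them. In bulk RNA, fewer cells of a type and less RNA per cell cannot be told apart.

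**Figure D1:**
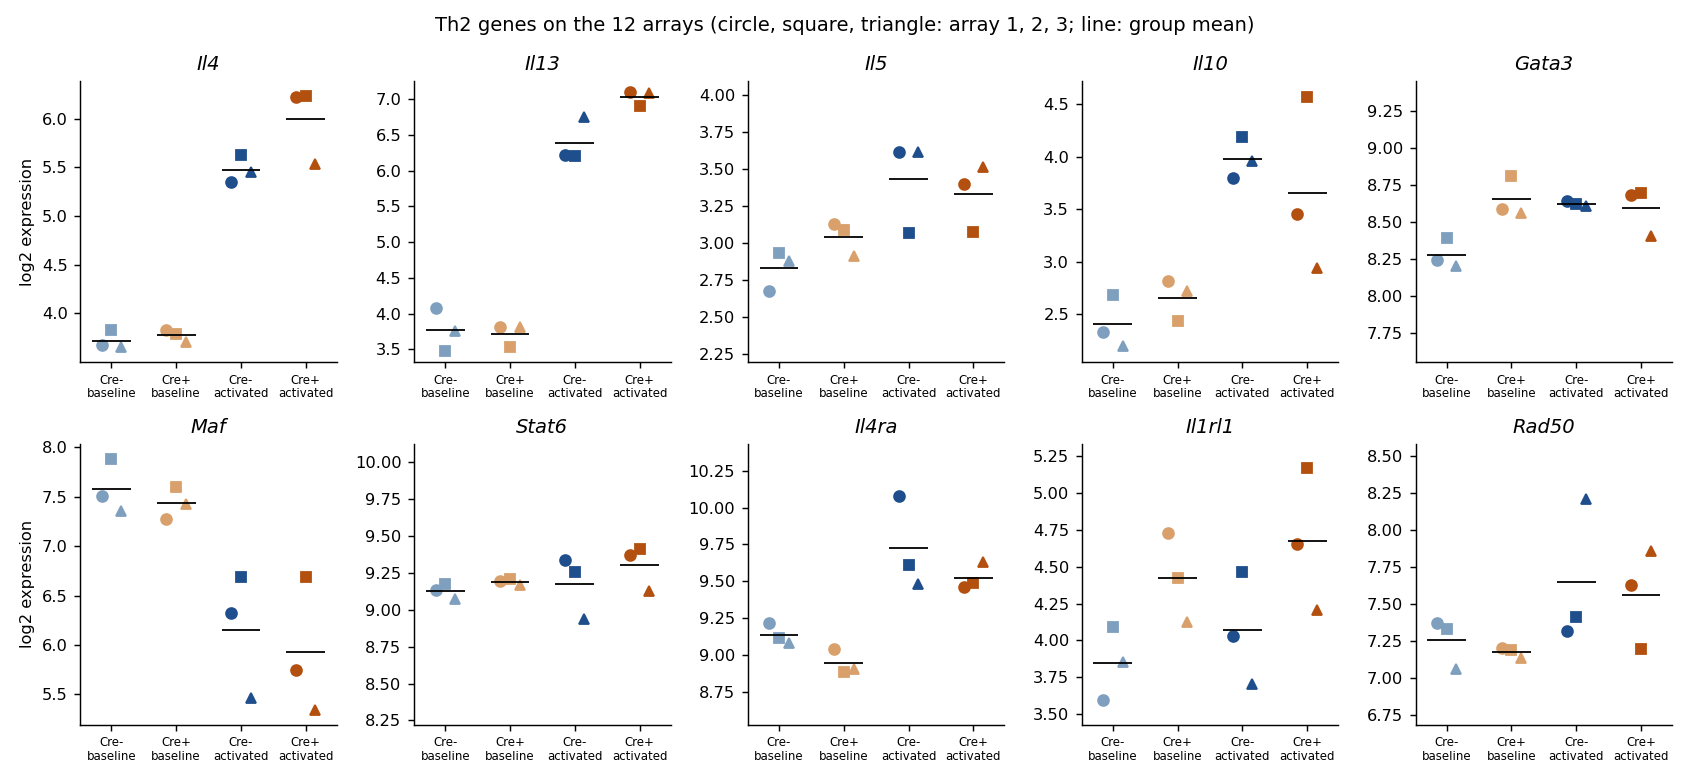
Log2 expression (y axis) of the 10 genes on each of the 12 arrays, by genotype and state, with points for arrays and bars for group means. Il4 and Il13 lay between 3.48 and 4.07 on every baseline array and above 5.3 on every activated array of both genotypes, while Maf moved the other way.

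Activation raised Il13 and Il4 strongly in both genotypes and raised Il10 and Il4ra less. It raised Il5 a little in Cre- cells and lowered Maf in both genotypes. In Cre- cells 6 of the 10 genes passed, 5 higher and 1 lower, where 18.6% of all genes passed (9.44% higher and 9.14% lower). Of all calls in that comparison 50.8% were higher, or 61.3% after centring arrays on their medians. In Cre+ cells 5 of the 10 passed, 4 higher and 1 lower, where 20.8% of all genes passed (10.2% higher and 10.6% lower). The median difference over the 10 genes was 0.49 in Cre- cells and 0.34 in Cre+ cells, beside -0.00 and -0.02 over all genes. These responses share no control samples, but both use the same fit.

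Il13 encodes the cytokine that drives mucus and airway reactivity in allergy. At baseline it read 4.07, 3.48 and 3.76 on the Cre- arrays and 3.81, 3.53 and 3.81 on the Cre+ arrays. After activation the Cre- arrays read 6.22, 6.20 and 6.74 and the Cre+ arrays 7.10, 6.90 and 7.09. The baseline genotypes overlapped, both activated groups lay far above them, and every activated Cre+ array lay above every activated Cre- array. The activation response was 2.62 ± 0.18 (SE), or 6.14-fold, in Cre- cells (limma adjusted p = 3.35e-06) and 3.31 ± 0.18 (SE), or 9.94-fold, in Cre+ cells (limma adjusted p = 5.41e-07).

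In activated cells Il13 was 0.64 ± 0.18 (SE) higher in Cre+ cells, 1.56-fold, with a 95% interval of 0.25 to 1.03. That difference did not pass over all genes (limma adjusted p = 0.197, unadjusted p = 0.0038). It passed without activated Cre- array 3, at 0.82 with a limma adjusted p of 0.0383, but not without array 3 of both genotypes, at 0.79 and 0.0885. With arrays weighted by their spread it was 0.85 and passed (limma adjusted p = 0.0018), and with the activated arrays fitted alone the adjusted p was 0.530. The response of Il13 in Cre+ cells exceeded that in Cre- cells by 0.70 ± 0.25 (SE), with a 95% interval of 0.14 to 1.25, and this did not pass either (limma adjusted p = 0.972, unadjusted p = 0.018).

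Il4 encodes the cytokine that both defines and feeds Th2 cells. The Cre- arrays read 3.68, 3.83 and 3.65 at baseline and 5.35, 5.63 and 5.45 after activation. The Cre+ arrays read 3.83, 3.79 and 3.71 at baseline and 6.23, 6.24 and 5.54 after activation. Activated Cre+ arrays 1 and 2 lay above all activated Cre- arrays, while array 3 lay among them. The response was 1.76 ± 0.17 (SE), or 3.38-fold, in Cre- cells (limma adjusted p = 4.36e-05) and 2.22 ± 0.17 (SE), or 4.67-fold, in Cre+ cells (limma adjusted p = 6.70e-06).

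After activation Il4 was 0.52 ± 0.17 (SE) higher in Cre+ cells, 1.44-fold, with a 95% interval of 0.15 to 0.89, and it did not pass (limma adjusted p = 0.327, unadjusted p = 0.0098). One array decided that call. Without activated Cre+ array 3 the difference was 0.75 and passed (limma adjusted p = 0.0176), and without array 3 of both genotypes it was 0.74 (0.0220). Array weights gave 0.59 (limma adjusted p = 0.0097), while the activated arrays alone gave an adjusted p of 0.868. The responses differed by 0.47 ± 0.24 (SE) between genotypes, which did not pass (limma adjusted p = 0.9998).

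Il5, the gene of the cytokine on which eosinophils depend, stayed low. It read 2.68, 2.93 and 2.87 on Cre- and 3.13, 3.08 and 2.91 on Cre+ baseline arrays. Activated Cre- arrays read 3.61, 3.07 and 3.61, and activated Cre+ arrays read 3.40, 3.08 and 3.51. Every reading lay below the median of its array, and the activated genotypes overlapped. In Cre- cells the response of 0.60 ± 0.16 (SE), 1.52-fold, passed (limma adjusted p = 0.0242). That call was lost without Cre- baseline array 1 (0.53, adjusted p = 0.0955) or 3 (0.63, 0.0578), without activated Cre- array 1 (0.51, 0.0746) or 3 (0.51, 0.0859), without array 3 of both activated groups (0.51, 0.0675), with array weights (0.40, 0.0576) and in a fit of the arrays compared alone (0.0630). In Cre+ cells the response was 0.29 (limma adjusted p = 0.271).

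Il10 encodes an inhibitory cytokine that Th2 cells share with regulatory and other T cells, and it lies outside the Th2 locus. The Cre- arrays read 2.34, 2.68 and 2.20 at baseline and 3.80, 4.19 and 3.96 after activation. The Cre+ arrays read 2.82, 2.44 and 2.72 at baseline and 3.46, 4.57 and 2.94 after activation. All activated arrays lay above all baseline arrays, and the activated Cre+ arrays covered the widest range. The response was 1.58 ± 0.32 (SE) in Cre- cells (limma adjusted p = 0.0054) and 1.00 ± 0.32 (SE) in Cre+ cells (limma adjusted p = 0.0461).

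The Il10 call in Cre+ cells was fragile. With 1 array left out at a time the response ran from 0.54, without activated Cre+ array 2 (limma adjusted p = 0.0769), to 1.35, without activated Cre+ array 3 (0.0091). It passed only in that last fit and in the fit without activated Cre- array 3 (0.0420), and it was lost on leaving out any of the other 10 arrays or fitting the arrays compared alone (0.103). The genotype difference in activated cells was -0.32 (limma adjusted p = 0.989), and the 5 regulatory T cell markers averaged 8.45 to 9.10 in activated Cre- and 8.73 to 9.55 in activated Cre+ cells. Activation itself raised 2 of the 5 in Cre- cells, where it raised 9.44% of all genes. In Cre+ cells it raised 2 and lowered 1, where it raised 10.2% and lowered 10.6% of all genes. Their average after activation therefore mixes unlike changes and does not measure the share of these cells. The part of regulatory T cells in the Il10 values was not tested.

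**Figure D2:**
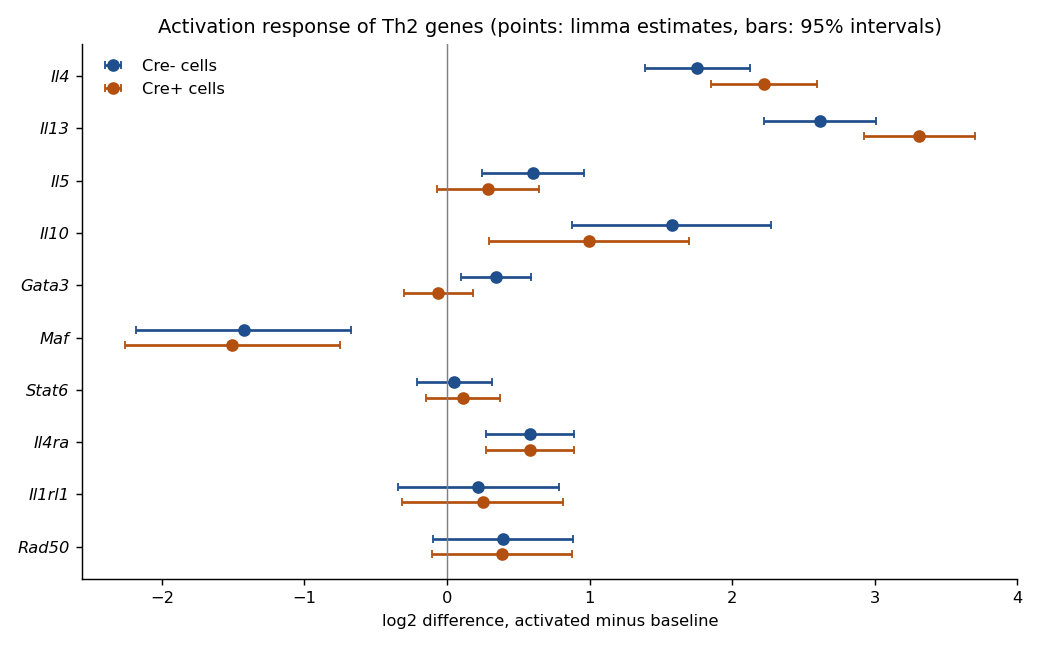
Activation response (activated minus baseline, log2) of each of the 10 genes in Cre- and Cre+ cells, with 95% intervals from the fit of 12 arrays. Il13 and Il4 lie farthest to the right in both genotypes, Maf lies to the left, and none of the 10 differed between genotypes at the adjusted threshold.

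Il4ra encodes the chain shared by the receptors for IL-4 and IL-13, and it rose in both genotypes. It read 9.22, 9.11 and 9.09 on Cre- and 9.04, 8.89 and 8.91 on Cre+ baseline arrays. It read 10.08, 9.61 and 9.48 on activated Cre- and 9.46, 9.49 and 9.63 on activated Cre+ arrays. Every baseline Cre+ array lay below every baseline Cre- array, by -0.19 in the mean, which did not pass (limma adjusted p = 0.950). The response was 0.58 ± 0.14 (SE) in each genotype, 1.498-fold in Cre- and 1.496-fold in Cre+ cells (limma adjusted p = 0.0135 in Cre- and 0.0125 in Cre+ cells), and the responses differed by -0.00 ± 0.20 (SE), with a 95% interval of -0.44 to 0.43. The Cre- call was lost without Cre- baseline array 3 (0.56, adjusted p = 0.050028) and with the arrays compared alone (0.0615). The Cre+ call was lost without activated Cre+ array 3 (0.53, adjusted p = 0.0519).

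Il1rl1 encodes ST2, the receptor for IL-33, which marks Th2 cells and a subset of regulatory T cells. At baseline the Cre- arrays read 3.60, 4.09 and 3.85 and the Cre+ arrays 4.73, 4.42 and 4.12. Activated Cre- arrays read 4.03, 4.47 and 3.71, and activated Cre+ arrays 4.65, 5.16 and 4.21. The baseline groups did not overlap and the activated groups did. Cre+ cells were 0.58 ± 0.26 (SE) higher at baseline (limma adjusted p = 0.715, unadjusted p = 0.047) and 0.61 ± 0.26 (SE) higher after activation (limma adjusted p = 0.598, unadjusted p = 0.038), and neither passed. The regulatory T cell markers averaged 8.12 to 8.29 on Cre- and 8.53 to 8.65 on Cre+ baseline arrays, with 0 of 5 past the threshold, where 0.564% of all genes passed. All 5 read higher in Cre+ cells at baseline and after activation, by 0.47 and 0.23 in the median. For each of them every baseline Cre+ array lay above every baseline Cre- array, where the groups of 16.3% of all genes did not overlap. After activation 0 of 5 passed, where 0.746% of all genes did. Their part in the Il1rl1 values was not tested.

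Gata3, the factor that commits a T cell to Th2, read 8.24, 8.39 and 8.20 on Cre- and 8.59, 8.81 and 8.56 on Cre+ baseline arrays. After activation it read 8.64, 8.62 and 8.60 on Cre- and 8.68, 8.70 and 8.40 on Cre+ arrays. Every baseline Cre+ array lay above every baseline Cre- array, and the activated groups overlapped. The baseline difference was 0.37 ± 0.11 (SE), 1.30-fold, with a 95% interval of 0.13 to 0.62, and it did not pass over all genes (limma adjusted p = 0.316, unadjusted p = 0.0061). With 1 array left out at a time it lay between 0.30 and 0.43, and it passed in none of the other settings tried. The part of regulatory T cells in the Gata3 values was not tested.

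Activation moved Gata3 by 0.34 ± 0.11 (SE) in Cre- cells, just short of the threshold (limma adjusted p = 0.0524), and by -0.06 in Cre+ cells (limma adjusted p = 0.785). The Cre- response passed after median centring (0.42, adjusted p = 0.0268), over genes with a mean of at least 5 (0.0280), with array weights (0.0172), with the replicate number as a block (0.0368) and without activated Cre+ array 3 (0.0367). The responses differed by -0.40 ± 0.16 (SE), which did not pass (limma adjusted p = 0.984, unadjusted p = 0.026). Gata3 levels at 24 hours differed by -0.03, with a 95% interval of -0.27 to 0.21.

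Stat6, the gene of the factor that carries the IL-4 signal, passed in no comparison. It read 9.07 to 9.17 on Cre- and 9.16 to 9.21 on Cre+ baseline arrays, and 8.94 to 9.34 and 9.12 to 9.41 on the activated arrays. Group means were 9.13 ± 0.05, 9.19 ± 0.02, 9.18 ± 0.21 and 9.30 ± 0.15 (SD, n = 3 each) in the order Cre- baseline, Cre+ baseline, Cre- activated and Cre+ activated. The genotype differences were 0.06 at baseline and 0.13 after activation.

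Maf, which activates Il4 in Th2 cells and Il10 in several T cell types, fell. It read 7.50, 7.89 and 7.36 on Cre- and 7.28, 7.60 and 7.42 on Cre+ baseline arrays. After activation it read 6.32, 6.69 and 5.46 on Cre- and 5.75, 6.69 and 5.34 on Cre+ arrays. Array 3 was the lowest in each activated group, and no activated array reached a baseline one. Maf fell by 1.43 on the log2 scale in Cre- cells, 2.69-fold lower (SE 0.35, limma adjusted p = 0.0137), and by 1.505 in Cre+ cells, 2.84-fold lower (SE 0.35, limma adjusted p = 0.0094). The Cre- call was lost without Cre- baseline array 2 (-1.27, adjusted p = 0.0565). Maf did not differ past the threshold between genotypes, at -0.15 at baseline and -0.23 after activation. With array weights the activated difference was -0.77 and passed (limma adjusted p = 0.0310).

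Rad50, whose protein is a subunit of the complex that senses broken DNA, is the locus gene that is not a cytokine. It read 7.37, 7.33 and 7.06 on Cre- and 7.20, 7.19 and 7.13 on Cre+ baseline arrays. On activated arrays it read 7.31, 7.41 and 8.21 in Cre- and 7.63, 7.19 and 7.86 in Cre+ cells. Activated array 3 was the highest of each genotype, the array on which the cell cycle genes were also highest. Rad50 passed in no comparison, with responses of 0.39 in Cre- cells (limma adjusted p = 0.286) and 0.38 in Cre+ cells. Array weights let the Cre+ response pass (0.44, limma adjusted p = 0.0182). The part of the cell cycle in these values was not tested.

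None of the 10 genes passed between genotypes in either state. At baseline 0 of 10 passed where 0.564% of all genes did, 2 of 10 had an unadjusted limma p under 0.05 (Gata3 and Il1rl1) against 6.90% of all genes, and 3 of 10 did not overlap between groups against 16.3%. After activation 0 of 10 passed where 0.746% of all genes did, 3 of 10 had an unadjusted limma p under 0.05 (Il4, Il13 and Il1rl1) against 7.54%, and 1 of 10, Il13, did not overlap against 10.8%. With array weights, which raised the calls over all genes from 177 to 2662, Il4, Il13 and Maf passed after activation. The median genotype difference over the 10 was 0.06 at baseline and -0.06 after activation, beside 0.00 and -0.01 over all genes. For the difference of the responses 0 of 10 passed where 0.00842% of all genes did, and 2 of 10 had an unadjusted limma p under 0.05 (Il13 and Gata3) against 4.68%.

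The cytokines of basophils and mast cells overlap with those of Th2 cells, so markers of these cells were read on the same arrays. The 8 basophil and mast cell markers averaged 2.28 to 2.60 over the 12 arrays, no reading exceeded 3.86, and 0 of 8 passed in any of the 5 comparisons. Of all genes 0.00842% to 20.8% passed, depending on the comparison. The 6 eosinophil markers averaged 2.94 to 3.72, and 2 of 6, Ccr3 and Ear2, fell with activation in each genotype. Activation lowered 9.14% of all genes in Cre- cells and 10.6% in Cre+ cells. The 8 B cell markers moved with activation and averaged 8.41 to 8.78 at baseline, 5.30, 5.73 and 6.93 on activated Cre- arrays and 6.88, 5.97 and 7.73 on activated Cre+ arrays. All 8 read lower after activation in both genotypes, 8 of them past the threshold in Cre- and 4 in Cre+ cells, beside those shares. For the difference of responses 0 of 8 passed, where 0.00842% of all genes did. In activated cells all 8 read higher in Cre+ cells, by 0.93 in the median, with 0 of 8 past the threshold, where 0.746% of all genes passed. The 6 myeloid markers measured averaged 5.03 to 5.79 at baseline and 3.79 to 4.15 after activation. Activation lowered 6 of them past the threshold in Cre- and 4 in Cre+ cells, beside 9.14% and 10.6% of all genes. B and myeloid cells also transcribe several of the 10 genes, among them Il4ra, Stat6 and Il10, and the part of these cells in the values was not tested.

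Innate-like T cells can release IL-4 and IL-13 quickly, and 4 of 5 listed markers of these and NK cells were measured. They averaged 4.84 to 5.11 on Cre- and 5.04 to 5.32 on Cre+ baseline arrays, and 4.08 to 4.43 and 4.26 to 4.47 after activation. At baseline 1 of 4 passed as higher in Cre+ cells, where 0.564% of all genes passed. This was Sox13, a factor of gamma delta T cells. It read 4.76, 4.46 and 4.53 on Cre- and 5.43, 5.71 and 5.36 on Cre+ arrays, 0.92 ± 0.13 (SE) apart (limma adjusted p = 0.0072). Only 2 of the 4 read higher in Cre+ cells at baseline, while Klrb1c (-0.11) and Ncr1 (-0.23) read lower. After activation all 4 read higher in Cre+ cells, by 0.17 in the median, and 0 of 4 passed, where 0.746% of all genes did. Activation lowered 2 of 4 in Cre- and 3 of 4 in Cre+ cells, where it lowered 9.14% and 10.6% of all genes. The 2 CD8 T cell markers averaged 6.57 to 6.98 on Cre- and 6.73 to 7.33 on Cre+ baseline arrays, and 5.97 to 7.15 and 6.53 to 7.13 after activation. Both read higher in Cre+ cells in each state, by 0.21 and 0.30 in the median, and neither passed. The part of these cells in the Il4 and Il13 values was not tested.

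The locus was then read gene by gene in its chromosomal order, to set the genes on either side beside the Th2 cytokines. RefSeq lists Septin8, Kif3a, Il4, Il13, Rad50, Il5, Irf1, the Slc22a5, Slc22a21 and Slc22a4 transporter genes, Pdlim4, P4ha2 and Csf2 along it, with Il3 beyond Csf2. Of 23 neighbours listed from Septin8 to Csf2, the 4 cytokine locus genes above left out, 12 were measured. Csf2 encodes the cytokine GM-CSF and Il3 the growth factor of mast cells and basophils.

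At baseline 0 of the 12 passed between genotypes, where 0.564% of all genes did, and after activation 1 did, Csf2, where 0.746% of all genes did. It read 4.05, 3.92 and 4.24 on activated Cre- arrays and 6.68, 5.96 and 7.79 on activated Cre+ arrays, so that the groups lay far apart. The difference was 2.74 ± 0.34 (SE), 6.68-fold (limma adjusted p = 0.00255), and it was lost in a fit of the activated arrays alone (0.155). Il3 read 4.15, 4.24 and 4.92 on activated Cre- arrays and 8.02, 7.58 and 8.50 on activated Cre+ arrays, a difference of 3.60 ± 0.25 (SE), 12.1-fold (limma adjusted p = 6.5e-05). The activated differences of Kif3a and Irf1, 0.13 and 0.19, did not pass (limma adjusted p = 0.99998 and 0.993).

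Pdlim4 and Septin8 did not pass in the fit of all arrays, but their Cre+ arrays lay above their Cre- arrays in both states, where the groups of 16.3% of all genes did not overlap at baseline and those of 10.8% after activation. Pdlim4, the gene of a protein of the actin skeleton, read 6.71, 6.60 and 6.34 on Cre- and 7.47, 7.27 and 7.22 on Cre+ baseline arrays, and 6.02, 5.66 and 4.96 against 6.68, 6.29 and 6.32 after activation. It was 0.77 higher in Cre+ cells at baseline and 0.88 higher after activation (limma adjusted p = 0.303 and 0.149, unadjusted p = 0.0056 and 0.0023). Septin8, which encodes a cytoskeletal septin, read 4.50, 4.19 and 4.07 on Cre- and 5.10, 4.91 and 4.82 on Cre+ baseline arrays, and 4.08, 4.39 and 5.02 against 5.17, 5.05 and 5.17 after activation. The differences were 0.69 and 0.63 (limma adjusted p = 0.300 and 0.311, unadjusted p = 0.0054 and 0.0091). All 4 passed with array weights (adjusted p = 0.0427 and 0.0017 for Pdlim4, 0.0482 and 0.0022 for Septin8). Without activated Cre- array 3 the baseline differences of Pdlim4 and Septin8 passed (adjusted p = 0.0385 and 0.0407), as did the activated one of Septin8 (0.89, adjusted p = 0.0159). Without array 3 of both genotypes the same 3 passed (adjusted p = 0.0361, 0.0415 and 0.0388). Pdlim4 passed also at baseline with the baseline arrays alone (adjusted p = 0.0277) and after activation with the replicate number as a block (0.0401).

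The genotype difference was larger for Il3 and Csf2 than for each of the 3 Th2 cytokines on the same arrays. The difference between Il3 and Il13 on one array ran from -2.07 to -1.82 in activated Cre- and from 0.68 to 1.42 in activated Cre+ cells, a shift of 2.96. The shift was 3.08 against Il4 and 3.70 against Il5. For Csf2 it was 2.10 against Il13, 2.22 against Il4 and 2.84 against Il5. In all 6 pairs every Cre+ array lay above every Cre- array. The pairs reuse Il3 and Csf2, whose own activated groups did not overlap, nor did those of 10.8% of all genes. They are therefore not 6 separate results, and the share of other gene pairs that separate was not measured. The two-sided exact permutation p was 0.1 for each pair (n = 3 a group), which is the smallest this design allows, and 0.1 after adjustment over the 6 pairs, so none can pass 0.05.

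**Figure D3:**
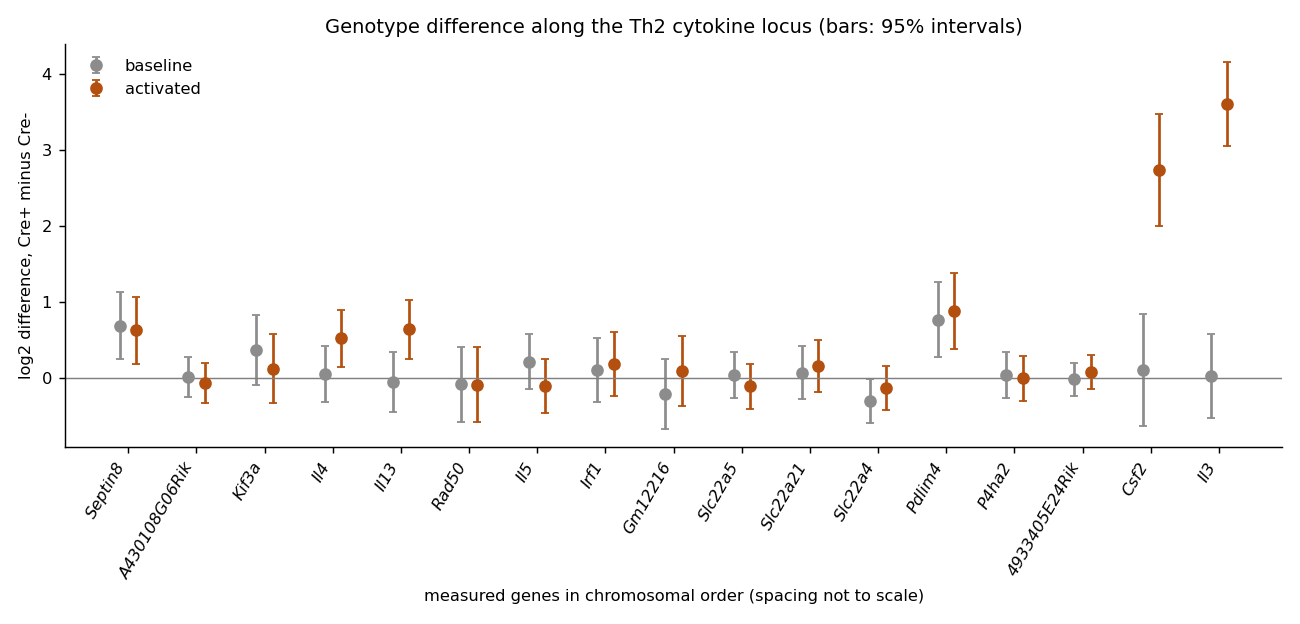
Genotype difference (Cre+ minus Cre-, log2) for the measured genes of the locus in chromosomal order, at baseline and after activation, with 95% intervals. After activation the differences stay between -0.10 and 0.64 from Kif3a to Irf1 and reach 2.74 for Csf2 and 3.60 for Il3.

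Among the 12 neighbours, activation raised Kif3a (0.68, limma adjusted p = 0.0425) and Csf2 (1.42, 0.0121) and lowered Pdlim4 (-1.002, 0.0096) in Cre- cells. In Cre+ cells it raised Irf1 (0.60, limma adjusted p = 0.0450) and Csf2 (4.06, 1.22e-05) and lowered Pdlim4 (-0.89, 0.0162). These are 3 of 12 in each genotype, where 18.6% of all genes passed in Cre- and 20.8% in Cre+ cells. Irf1 encodes an interferon-induced factor, Kif3a a motor subunit of the cilium. The Kif3a call was lost on leaving out any of 10 arrays, the exceptions being activated Cre+ arrays 2 and 3, and with arrays scaled to their 75th percentile (adjusted p = 0.0579). The Irf1 call was lost on leaving out any of 9 arrays, the exceptions being activated Cre- arrays 1 and 3 and activated Cre+ array 3, with quantile normalization (adjusted p = 0.0994) and with 75th percentile scaling (0.0568). Activation lowered no neighbour in Cre+ cells without Cre+ baseline array 1 or activated Cre+ array 3, and it lowered 2 in Cre- cells without the latter. For the difference of responses 0 of the 12 passed, against 1 without activated Cre+ array 2 or 3. Without activated Cre- array 3, 2 neighbours passed between genotypes at baseline and 2 after activation.

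The rest of the pathway was read in 5 lists. Of the 14 genes of IL-4 and IL-13 receptor signalling, 0 passed between genotypes in either state, where 0.564% of all genes did at baseline and 0.746% after activation, with median differences of 0.03 at baseline and 0.11 after activation. Activation raised 3 and lowered 3 of the 14 in each genotype, where 9.44% of all genes were raised and 9.14% lowered in Cre- cells and 10.2% and 10.6% in Cre+ cells. The 3 that activation lowered in Cre+ cells became 5 without activated Cre- array 3 and 1 without activated Cre+ array 1. Feedback inhibitors of cytokine receptors were among those that rose, Cish by 2.61 in Cre- and 2.38 in Cre+ cells (limma adjusted p = 6.43e-06 and 1.13e-05) and Socs1 by 1.77 and 1.59 (1.71e-05 and 3.03e-05). Jak2, a receptor kinase, rose by 0.68 and 0.85 (limma adjusted p = 9.72e-04 and 1.97e-04).

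Of 17 factors that favour Th2 genes, 1 was higher in Cre+ cells at baseline and 1 after activation, and no factor was lower. Over all genes 0.564% passed at baseline and 0.746% after activation. The baseline gene was Irf4, which acts with other factors at the Il4 promoter and in many activated T cells. It read 6.61, 6.53 and 6.43 on Cre- and 7.30, 7.54 and 7.59 on Cre+ baseline arrays, a difference of 0.95 (limma adjusted p = 0.00305). These groups did not overlap, nor did those of 16.3% of all genes. After activation Irf4 lay between 10.17 and 10.47 in both genotypes. The gene after activation was Bhlhe40, a factor linked to cytokine output in helper T cells. It read 9.05, 9.14 and 9.10 on Cre- and 9.87, 9.68 and 9.97 on Cre+ activated arrays, 0.74 ± 0.10 (SE) apart (limma adjusted p = 0.00475). The call was lost with the activated arrays alone (0.155).

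Activation raised 6 and lowered 3 of these 17 factors in Cre- cells, and raised 7 and lowered 4 in Cre+ cells, beside the same 9.44% and 9.14% of all genes in Cre- and 10.2% and 10.6% in Cre+ cells. The factors lowered in Cre- cells numbered 1 without Cre- baseline array 1 or 2, and those lowered in Cre+ cells numbered 2 without activated Cre+ array 1 or 3. Without activated Cre+ array 3, 2 of the 17 were higher in Cre+ cells after activation. Irf4 rose by 3.74 in Cre- and 2.90 in Cre+ cells (limma adjusted p = 1.59e-08 and 1.47e-07), Bhlhe40 by 2.35 and 3.06 (1.83e-07 and 2.84e-08) and the repressor Gfi1 by 2.26 and 2.24 (2.99e-05 and 2.61e-05). The responses differed by -0.85 for Irf4 and 0.71 for Bhlhe40, and neither passed (limma adjusted p = 0.327 for each).

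Of 15 factors that oppose Th2 genes, 0 passed between genotypes, where 0.564% of all genes did at baseline and 0.746% after activation. Sox4 did not pass, but its Cre+ arrays lay above its Cre- arrays in both states, by 0.74 and 0.86 in the mean (limma adjusted p = 0.261 and 0.118). The groups of 16.3% of all genes did not overlap at baseline and those of 10.8% after activation. Activation raised 3 and lowered 1 in Cre- cells, and raised 5 and lowered 1 in Cre+ cells. In all 4 of 15 passed in Cre- cells, where 18.6% of all genes did, and 6 of 15 in Cre+ cells, where 20.8% did. The 5 became 3 without Cre+ baseline array 1 or 2 or activated Cre+ array 1 or 3. The 1 lowered in Cre- cells became 2 without Cre- baseline array 3, activated Cre- array 1 or activated Cre+ array 2 or 3. Without activated Cre+ array 2, 3 were lowered in Cre+ cells, 2 were higher in Cre+ cells after activation and 1 passed for the difference of responses. Tbx21, which encodes the Th1 factor T-bet, rose by 2.34 and 2.36 (limma adjusted p = 1.18e-06 and 1.04e-06), and the histone methyltransferase gene Ezh2 by 1.63 and 1.73 (0.00133 and 8.44e-04). Runx1, a factor that restrains Gata3, fell by 0.87 and 0.82 (limma adjusted p = 2.45e-04 and 3.25e-04). The same stimulus thus raised Tbx21 together with Il4 and Il13 in each genotype, as values of the whole cell pool.

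Of 15 receptors and products of Th2 cells, 0 passed between genotypes, where 0.564% of all genes did at baseline and 0.746% after activation. Activation raised 2 and lowered 2 in Cre- cells, and raised 4 and lowered 2 in Cre+ cells, where 18.6% and 20.8% of all genes passed. Chemokine receptor genes were among those that rose, Ccr8 by 2.78 in Cre- and 2.23 in Cre+ cells (limma adjusted p = 1.58e-06 and 6.95e-06) and Ccr4 by 1.92 and 1.32 (1.53e-04 and 0.00169). The IL-9 receptor gene Il9r fell by 1.46 and 1.34 (limma adjusted p = 4.82e-05 and 7.58e-05).

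Of 7 ligands that promote Th2 responses, 1 was higher in activated Cre+ cells, where 0.746% of all genes passed in either direction. Il2, the T cell growth factor, which also opens the Il4 locus through STAT5, read 7.31, 7.91 and 8.57 on Cre- and 9.72, 8.88 and 9.66 on Cre+ activated arrays. The groups did not overlap and differed by 1.49 (limma adjusted p = 0.0349), but that call was lost on leaving out any of 10 arrays, the exceptions being activated Cre- array 3 and activated Cre+ array 2, each of which left 2 of the 7 ligands higher. It was also lost after median centring (adjusted p = 0.0537) and with the activated arrays alone (0.435). Tnfsf4, which encodes the OX40 ligand, read 2.55, 2.90 and 2.73 on Cre- and 4.08, 4.21 and 3.84 on Cre+ baseline arrays, and 4.05, 5.08 and 5.64 against 6.96, 5.98 and 6.71 after activation. Its groups overlapped in neither state, but the differences of 1.32 and 1.62 did not pass (limma adjusted p = 0.205 and 0.0665). For scale, the groups of 16.3% of all genes did not overlap at baseline, and those of 10.8%, Il2 among them, after activation. The baseline difference passed with the baseline arrays alone (adjusted p = 0.0038), with array weights (0.0256) and without activated Cre- array 1 (0.0444). The activated difference passed with array weights (adjusted p = 2.8e-04), without activated Cre- array 3 (0.0096), without activated Cre+ array 2 (0.0321) and without array 3 of both genotypes (0.0269). Activation raised both genes, 2 of the 7 ligands, in both genotypes, where 9.44% of all genes were raised in Cre- and 10.2% in Cre+ cells: Il2 by 5.22 in Cre- and 6.59 in Cre+ cells (limma adjusted p = 7.67e-07 and 2.25e-07) and Tnfsf4 by 2.20 and 2.51 (0.00116 and 4.52e-04).

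**Figure D4:**
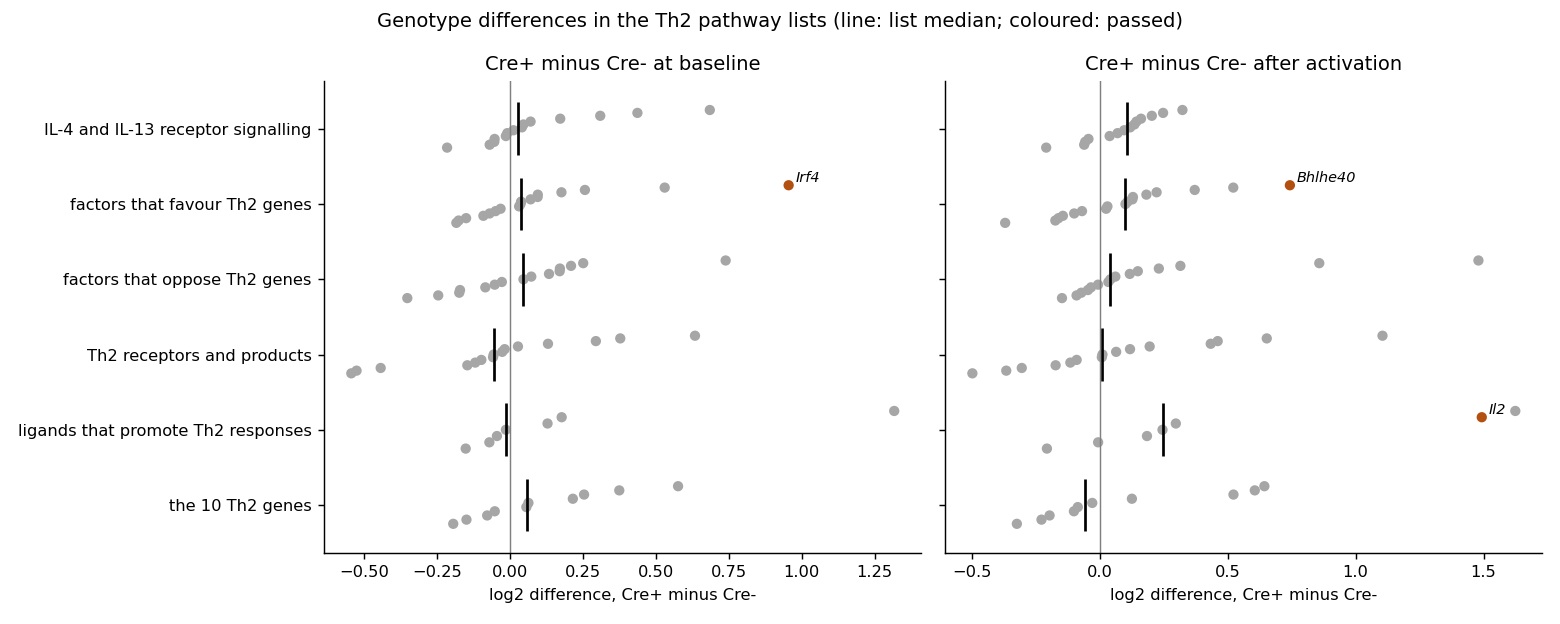
Genotype difference (Cre+ minus Cre-, log2) of every measured gene of the 5 Th2 pathway lists and of the 10 Th2 genes, at baseline and after activation, with a line at each list's median and the genes that passed named and coloured. List medians lie between -0.06 and 0.24, and the genes that passed are Irf4 at baseline and Bhlhe40 and Il2 after activation.

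Across the 12 arrays the genes of most similar pattern were picked by Pearson correlation among 2985 named genes with an SD of at least 0.5. These correlations describe arrays that share 2 states and 2 genotypes. Il13 was closest to Il2 (r = 0.994), Atf3 (0.993) and Bhlhe40 (0.991), and Il4 to Nfil3 (0.984), Tnfrsf18 (0.983) and Tnfrsf9 (0.981). For Il10 the closest genes were Slc16a3 (0.947), Nfkbid (0.937) and Ptger2 (0.935). Rad50 was closest to Pmf1 (0.984), Tubg1 (0.983) and Zfp367 (0.979), and Maf to Sirt7 (0.983), Sp4 (0.981) and Ccpg1 (0.980). Il4ra was closest to Wdr59 (0.940). The best matches were lower for Stat6 (Ddr1, 0.931), Il5 (Pfdn4, 0.892), Il1rl1 (Ikzf4, 0.855) and Gata3 (Nlrp9a, 0.825).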

How the data were processed

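The authors deposited log2 expression values of 12 arrays, made with RMA (affy 1.36.1, R 2.15.1) per the submitters' processing notes. The deposited log2 values span 0.542 to 13.2. The sources used here give neither the chip definition nor the genome build. Of 25206 probe sets, 23185 were named through the array's platform table and 555, Il1rl1 among them, through their gene identifier in RefSeq. These 23740 were tested and 1466 unnamed ones left out.

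Group means of all 12 arrays were fitted together with limma 3.58.1 in R 4.3.3, with no covariate. The fit had 8 residual degrees of freedom and 3.54 from moderation. Tests were two-sided, with Benjamini-Hochberg adjustment over all genes tested in each of 5 comparisons and no fold minimum. SE values and 95% intervals are those of the model, SD values those of 3 arrays. No source states that replicates were separate animals, so p-values measure the spread between samples, and the number of arrays limits the precision. The model was tested on simulated data.

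Genes named were the 10 members, Kif3a, Irf1, Il3, Csf2 and Ikzf1 at any value, locus neighbours and pathway genes that passed between genotypes, and per pathway list the 3 smallest p for activation in Cre- cells. Tnfsf4 came from that last rule. Pdlim4, Septin8 and Sox4 were named outside it, after their values were seen. The members and lists were chosen with earlier results of these data known. Replicate numbers were not taken as pairs: the deviations of same-numbered activated arrays of the 2 genotypes correlated at 0.574 for array 2 and 0.727 for array 3 but at -0.04 for array 1, and no other same-numbered pair exceeded 0.156.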

Additional observations from a re-analysis of the deposited data

Results flagged for a closer look

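Il3, the neighbour beyond Csf2, was the gene of the locus whose activation response differed between genotypes by a test of the difference itself. Its response was 3.57 ± 0.36 (SE) larger in Cre+ than in Cre- cells on the log2 scale (limma adjusted p = 0.00578). It was 1 of the 2 genes that passed that test over all 23740 genes. Baseline Il3 read 2.68, 2.72 and 2.81 on the Cre- arrays and 2.93, 2.95 and 2.39 on the Cre+ arrays. Csf2 differed between genotypes by 0.10 at baseline and by 2.74 after activation, but its difference of responses did not pass. Whether a changed response is particular to Il3 was not tested.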

How the results depend on the processing

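Of 98 tested results, each of which had a value in 20 to 23 of the 23 settings, 61 kept their direction and side of the threshold in every setting that gave one, 11 lost a call and 11 gained one in at least 1 setting, and 16 changed sign, each with a limma adjusted p of 0.785 or above in the fit reported. No gene of the 10 passed at baseline or for the difference of responses in any setting that gave it a value. After activation the number past the threshold between genotypes was 0, against 3 with array weights, 1 without activated array 3 of both genotypes and 0 to 1 with 1 array left out. For activation in Cre- cells it was 6, against 4 to 7 with 1 array left out, and in Cre+ cells 5, against 4 to 5, and 3 over genes with a mean of at least 5, a filter that 6 of the 10 passed. With the replicate number as a block it was 7 and 5, Gata3 being the gene gained. Calls over all genes in activated cells between genotypes were 177, against 2662 with array weights, 11 with the activated arrays alone and 76 to 308 with 1 array left out. At baseline they were 134, against 330 with array weights, 261 with the baseline arrays alone, 276 without activated array 3 of both genotypes, 88 over genes with a mean of at least 5 and 55 to 207 with 1 array left out. For the difference of responses they were 2, against 157 with array weights, 0 over genes with a mean of at least 5, 4 with the block, 9 without activated array 3 of both genotypes and 2 to 26 with 1 array left out. For activation in Cre+ cells they were 4942, against 8600 with array weights and 3246 to 6092. Array weights turned the activated genotype differences of Il5 to 0.18, Rad50 to 0.18 and Gata3 to 0.0269, and the differences of responses of Rad50 to 0.28 and Il1rl1 to -0.29. Quantile normalization turned that of Rad50 to 0.0199, and scaling to the 75th percentile those of Rad50 to 0.0203 and Il4ra to 0.0263. Without activated array 3 of both genotypes the activated differences turned to 0.0464 for Rad50, 0.0564 for Gata3 and 0.0202 for Il10, the Gata3 response in Cre+ cells to 0.0354 and the difference of responses of Rad50 to 0.12. The causes were not tested. With 1 array left out the baseline differences ran from -0.20 to 0.10 for Il13 and -0.26 to 0.0032 for Maf, and the activated differences from -0.28 to 0.0247 for Il5, -0.25 to 0.20 for Rad50, -0.0816 to 0.0651 for Gata3, -0.61 to 0.0631 for Maf, -0.78 to 0.0323 for Il10, -0.16 to 0.32 for Kif3a and -0.0639 to 0.36 for Irf1. Responses ran from -0.0296 to 0.17 for Stat6 in Cre- and -0.11 to 0.0354 for Gata3 in Cre+ cells. Differences of responses ran from -0.17 to 0.27 for Rad50, -0.46 to 0.21 for Maf, -0.12 to 0.17 for Il4ra, -0.22 to 0.26 for Il1rl1 and -0.0572 to 0.15 for Stat6. Fitting the arrays compared alone gave no value for the difference of responses. Using only genes named in the platform table was chosen after seeing the data and changed no call.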
